A study of Rattus norvegicus with 8 samples.

Results

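Messenger RNA of ion channel genes was examined in the pituitary of lactating Wistar rats on postpartum day 7. The agent was TCDD, an aryl hydrocarbon receptor ligand of the dioxin class, in 4 rats, and 4 rats served as controls. The labels state no dose, no time of exposure and no genetic change. One single-colour Agilent array was used per rat. Slide 1 carried the control arrays and slide 2 the TCDD arrays, and the effects of slide and of TCDD therefore cannot be told apart. The members were the non-control spots whose array gene name marks a calcium channel subunit (Cacna, Cacnb, Cacng), a potassium channel (Kcn), a sodium channel (Scn), an HCN channel, a TRP channel or a chloride channel (Clcn, Ano), with 1 sodium channel gene left out by the rule. They came to 300 of 42877 non-control spots, or 237 of 30367 probes, which stand for 174 genes. Values are log2 signals relative to the 75th percentile of their array, so that 0 is the 75th percentile, and a difference is the TCDD mean minus the control mean. A signal also depends on the sequence of its probe, so levels were compared between arrays. Between genes or probes brightness served only to choose which to name or use.

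Pituitary endocrine cells are electrically excitable. Calcium channels open during spontaneous action potentials, and the calcium that enters drives hormone release, while sodium, HCN and TRP channels carry the depolarising current that brings the cell to threshold. Potassium channels repolarise the membrane and hold it down between spikes. In lactotrophs, hypothalamic dopamine stops prolactin release in part by opening inwardly rectifying potassium channels, and large-conductance calcium-activated potassium channels shape long bursts of spikes.

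Of the 174 genes, 108 had a probe well above background on 4 or more arrays and were tested, 100 of them on all 8 arrays. Another 23 reached that level on 1 to 3 arrays and 43 on none. The labelled tissue was borne out by its markers: Prl, Gh1, Pomc, Lhb and Tshb were all measured. All 4 HCN genes were measured, 8 of 13 sodium channel genes, 7 of 10 calcium channel pore genes, 8 of 16 auxiliary calcium channel genes and 12 of 23 TRP genes. Among potassium channels, 35 of 52 voltage-gated genes with their partner subunits, 8 of 11 calcium- or sodium-activated genes, 9 of 13 two-pore genes and 6 of 15 inward rectifiers were measured, and among chloride channels 11 of 16. The calcium pore genes Cacna1e, Cacna1f and Cacna1s were well above background on no array, the last of these being the channel of skeletal muscle. The same held for Kcnj2 and Kcnj10, 2 inward rectifiers, for Kcna1, and for the sensory channels Trpa1, Trpm8 and Trpv1. Scn8a, a sodium channel of neurons, was well above background on 2 control arrays and 1 TCDD array, and the pore subunit Kcnj11 of the channel that ATP closes on 1 control and 2 TCDD arrays, so neither was tested. A probe below background gives no more than that for its own target stretch. The only gene that fell in no class, Kcnrg, was well above background on 2 arrays.

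**Figure D1:**
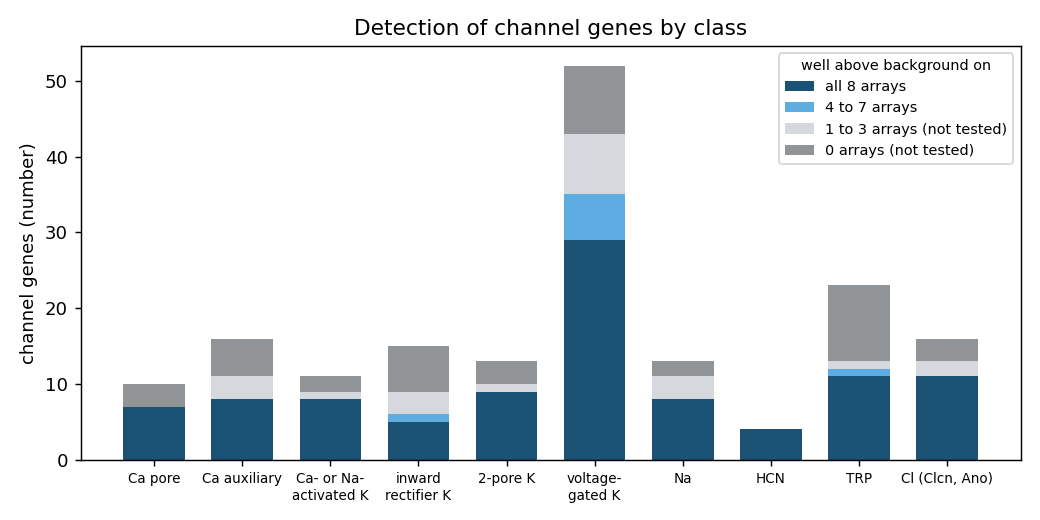
Number of channel genes (vertical axis) in each class (horizontal axis), coloured by the number of arrays on which the best probe was well above background. All 4 HCN genes were well above background on all 8 arrays, while 9 of 15 inward rectifier genes reached that level on 3 arrays or fewer and were not tested.

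No channel gene passed an adjusted p of 0.05 (limma, Benjamini-Hochberg over 17350 genes, of which 11, or 0.0634%, passed, 0.0403% higher and 0.0231% lower). The smallest adjusted p among the 108 was 0.22. At an unadjusted p under 0.05 there were 13 channel genes, 9 higher and 4 lower after TCDD. They made up 12.0% of the measured channel genes, beside 10.7% of all genes tested (7.76% higher and 2.95% lower), so the share lay near the background. With quantile normalization there were 8 channel genes, 4 in each direction, and with median centring 4 higher and 6 lower, beside 5.79% higher and 4.09% lower, and 4.34% higher and 4.69% lower, over all genes. Normexp background correction with quantile normalization gave 7 higher and 6 lower, beside 6.2% and 4.88% of all genes, and the authors' deposited intensities gave 5 in each direction, beside 5.39% higher and 4.59% lower over all genes. The split also rested on single arrays. Without TCDD replicate 2 it was 11 higher and 1 lower (6.53% and 2.73% of all genes), without control replicate 3 it was 7 and 1 (6.08% and 2.87%), and without control replicate 4 it was 8 and 7 (8.16% and 3.59%). The 4 TCDD values lay all above the 4 control values for 5 channel genes and all below for 2, where 7.1% of all genes did not overlap (5.18% higher and 1.91% lower). Over the 108, 57 were higher and 51 lower, where 56.4% of all genes were higher. The split became 49 and 59 with quantile normalization or median centring, where 51.0% and 44.3% of all genes were higher. Without TCDD replicate 2 they were 71 and 37, and 56.3% of all genes were then higher. The median difference was 0.02 over the 108 channel genes and 0.02 over all genes. A difference of at least 1.5-fold was seen for 3 of the 108 (2.78%) and for 2.47% of all genes. The precision was moderate: the 95% confidence interval of a channel gene reached a median of 0.36 log2 units to either side, and for 97 of the 108 the whole interval lay within 2-fold of no difference.

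**Figure D2:**
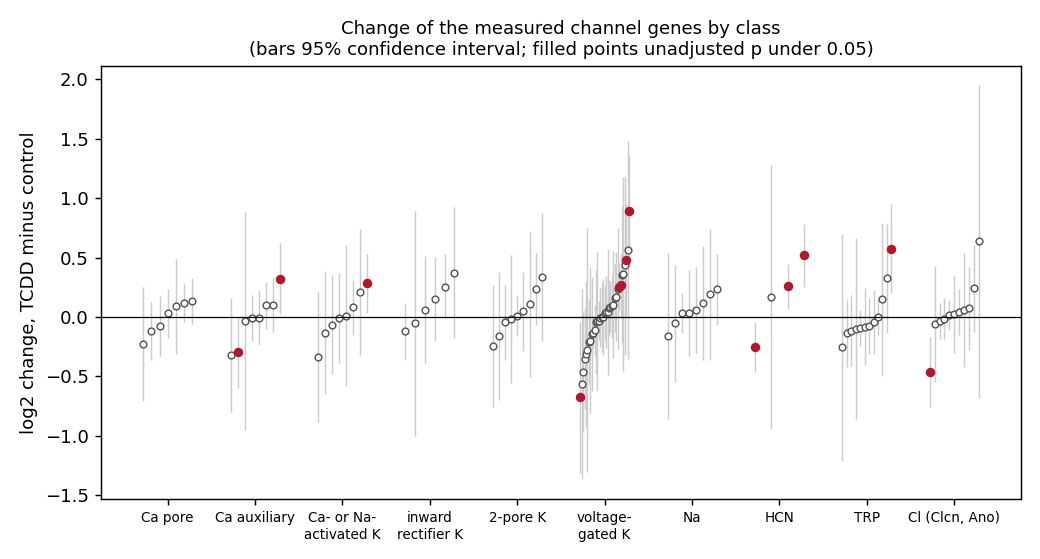
Log2 difference, TCDD minus control (vertical axis), of each of the 108 measured channel genes, grouped by class (horizontal axis), with 95% confidence intervals of the limma fit. Filled points are the 13 genes at an unadjusted p under 0.05. They are spread over 6 classes, 5 of them voltage-gated potassium genes, and lie on both sides of 0.

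HCN channels open when the membrane hyperpolarises and pass an inward current of sodium and potassium that cyclic AMP enhances. Hcn4 was higher and Hcn3 was lower on the TCDD arrays, each at an unadjusted p under 0.05 and neither past the adjusted threshold. The first 30 of the 60 bases of 3 HCN probes are given here, 5′ to 3′ in lower case throughout since no motif was sought, because members of this small family differed in direction and the probes show which stretch each value reads:
Hcn2: acgccatcatccaggagattgtcaaatatg
Hcn3: atccaggtcatcagtgcctgagccagttac
Hcn4: ctcccttcttccttcaggtttaactgtgat
On the rn4 genome build they lie on chromosome 7 from 11485814 to 11485873 (Hcn2, minus strand), chromosome 2 from 181224326 to 181224385 (Hcn3, minus strand) and chromosome 8 from 62667159 to 62667218 (Hcn4, plus strand). Whether they fall in coding or untranslated exons was not determined here. No pair of the 3 whole probes shared a run of more than 7 bases.

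Hcn4, the isoform best known from the pacemaker of the heart, stood at -3.29, -3.26, -3.32 and -3.20 in controls and at -3.15, -3.11, -2.84 and -2.92 after TCDD. No TCDD array fell among the controls, with a difference of 0.26 (SE 0.08, 1.20-fold, adjusted p = 0.35, limma), which normexp brought to 0.09. By an exact permutation test, two-sided, p was 0.029, which no comparison of 4 with 4 arrays can go below. Hcn3 stood at -3.96, -3.85, -3.72 and -4.05 in controls and at -4.11, -4.30, -4.14 and -4.02 after TCDD. Here TCDD replicate 4 lay just above control replicate 4, and the difference was -0.25 (SE 0.09, adjusted p = 0.41, limma). Hcn2 was at -4.46, -4.26, -4.25 and -4.44 in controls and at -4.62, -4.96, -2.53 and -4.60 after TCDD. TCDD replicate 3 alone stood far above the other arrays, 3 TCDD values lay below all controls, and the difference of 0.17 (SE 0.48, adjusted p = 0.94, limma) therefore rests on that array: without it the difference was -0.38.

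**Figure D3:**
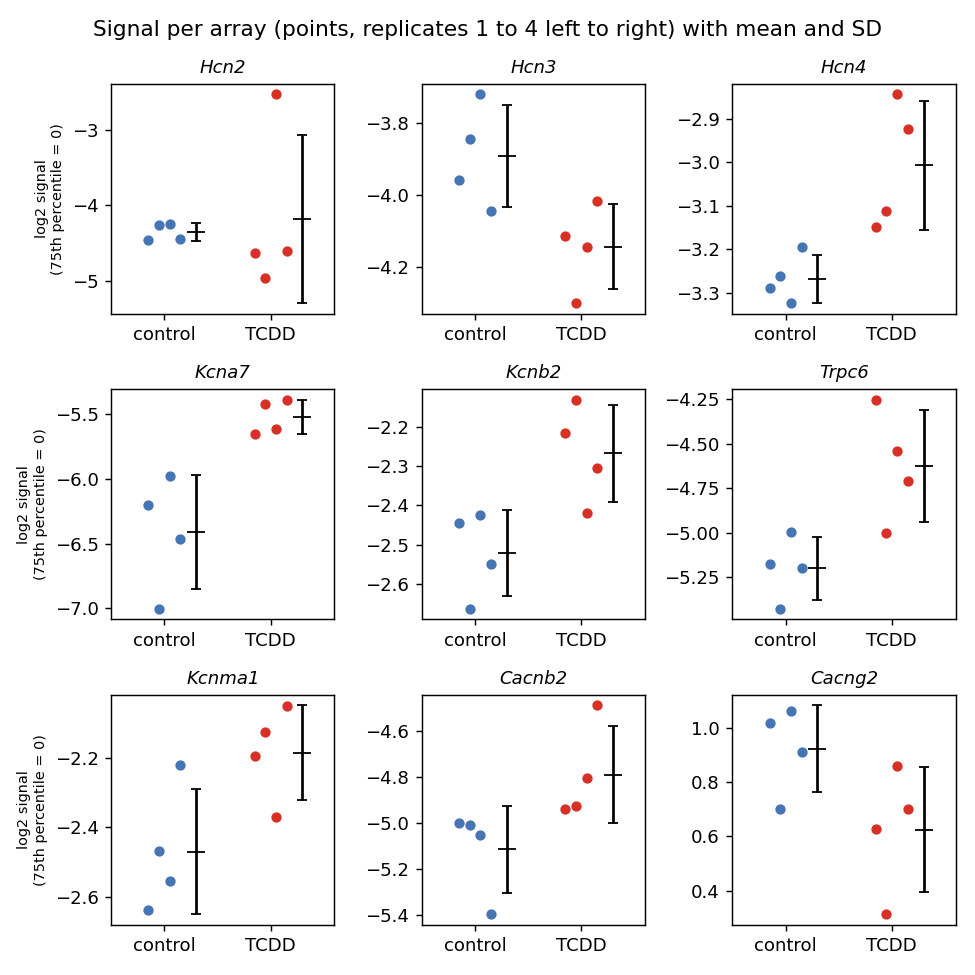
Log2 signal relative to the 75th percentile of the array (vertical axes, a separate scale in each panel) on each control (blue) and TCDD (red) array for 9 channel genes, with mean and SD of 4 arrays. Hcn4, Kcna7, Kcnb2 and Cacnb2 show TCDD values above all controls, and Hcn2 a single high TCDD array.

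Voltage-gated potassium channels repolarise the cell after a spike. Of the 35 measured genes of this class 18 were higher and 17 lower, with a median difference of 0.03. At an unadjusted p under 0.05 there were 4 higher and 1 lower, beside 7.76% higher and 2.95% lower over all genes tested. Kcna7, a member of the Shaker family, stood at -6.20, -7.00, -5.98 and -6.46 in controls and at -5.65, -5.42, -5.62 and -5.39 after TCDD. It was well above background on 1 control array and all 4 TCDD arrays, and so passed the filter through the group where it was brighter. Its difference of 0.89 (SE 0.20, adjusted p = 0.23, limma) shrank to 0.13 with normexp, and the second Kcna7 probe did not pass the filter. Kcnb2, which encodes a pore subunit of a delayed rectifier, stood at -2.45, -2.66, -2.42 and -2.55 in controls and at -2.21, -2.13, -2.42 and -2.30 after TCDD, where TCDD replicate 3 lay barely above control replicate 3 (difference 0.25, SE 0.09, adjusted p = 0.37, limma).

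The other 3 genes of this class at an unadjusted p under 0.05 fell outside the rule for named genes and are named after their values were seen. Kcng2 and Kcnv2 are electrically silent subunits that assemble with pore subunits of other families, and Kcnc2 belongs to a family of fast repolarising channels. The difference was -0.68 (SE 0.28) for Kcng2, 0.48 (SE 0.21) for Kcnv2 and 0.27 (SE 0.12) for Kcnc2, with adjusted p-values between 0.44 and 0.47 (limma) and groups that overlapped in each. The ERG-type channels, which set the resting potential of lactotrophs, had differences close to 0. Kcnh2 was at -0.33 ± 0.23 (SD, n = 4) in controls and -0.33 ± 0.15 after TCDD, with a confidence interval of the difference from -0.29 to 0.29. Kcnh6 differed by 0.08 (SE 0.09). Kcnq3, a subunit of the current that muscarinic receptors inhibit, had the widest spread of this class, at -6.00, -3.95, -3.89 and -5.03 on the control arrays alone, and differed by -0.28 (SE 0.45, adjusted p = 0.88, limma). Kcnd3, a pore subunit of the transient A-type current, stood between -3.53 and -3.06 in controls and between -3.35 and -3.21 after TCDD, with a difference of 0.08 (SE 0.10).

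Kcnma1 encodes the pore of the large-conductance calcium-activated potassium channel and Kcnmb4 a beta subunit of it found mainly in neurons. Kcnma1 has 3 probes, whose first 30 bases are shown because they gave differences of unequal size:
probe 1: ctgtcaaggaaatgacttttcttcaaattt
probe 2: acggataatgcctatcccagaaacattcaa
probe 3: tcttcatcatcttgctctggcggactctca
In rn4 they lie on the plus strand of chromosome 15, from 950227 to 950286, from 949056 to 949115 and from 323124 to 323183. Probe 1, the one used, stood at -2.64, -2.47, -2.55 and -2.22 in controls and at -2.20, -2.13, -2.37 and -2.05 after TCDD. Control replicate 4 lay among the TCDD arrays, and the difference was 0.28 (SE 0.11, adjusted p = 0.42, limma). By probes 2 and 3 it was 0.07 (SE 0.08) and 0.11 (SE 0.09), so the 3 readings shared a sign and differed about as much as their errors. Kcnmb4 stood at -0.76, -0.60, -0.35 and -1.40 in controls and at -0.97, -1.55, -0.83 and -1.09 after TCDD. Its lowest arrays were TCDD replicate 2 and control replicate 4, and the difference of -0.34 (SE 0.24, adjusted p = 0.68, limma) lay within the spread of the controls. Of the 8 measured genes of this class 4 were higher and 4 lower. Kcnmb2, another beta subunit, is read by 2 probes of opposite sign, at 0.08 (SE 0.10) by the probe used and -0.26 (SE 0.08) by the other. Such a difference in sign between kept probes was found for 11 of the 29 channel genes that have several.

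The inward rectifiers through which dopamine receptors act on lactotrophs are assembled from Kcnj3, Kcnj5, Kcnj6 and Kcnj9. Kcnj6 stood at -3.76, -4.04, -3.91 and -3.95 in controls and at -3.84, -3.85, -3.57 and -3.38 after TCDD. TCDD replicates 3 and 4 lay above all controls and the other 2 TCDD arrays among them, for a difference of 0.26 (SE 0.12, adjusted p = 0.51, limma). Kcnj5 was at 0.40 ± 0.22 (SD, n = 4) in controls and 0.55 ± 0.26 after TCDD, a difference of 0.15 (SE 0.15). Kcnj3 differed by 0.06 (SE 0.20), and Kcnj9 was well above background on 3 arrays and was not tested. Kcnj8, the pore subunit of an ATP-sensitive channel of vessel wall cells, differed by 0.37 (SE 0.24, adjusted p = 0.65, limma), with groups that overlapped. Kcnj13 was well above background on 6 arrays and spread from -7.09 to -5.19 within the controls. None of the 6 measured genes reached an unadjusted p of 0.05.

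Two-pore potassium channels carry the background current that sets the resting potential, and 5 of the 9 measured genes were higher and 4 lower. Kcnk2, a channel opened by stretch and lipids, was highest on control replicate 3, stood at 1.36, 1.31 and 0.43 on control replicates 1, 2 and 4, and at 0.93, 0.72, 1.07 and 0.89 after TCDD. The lowest array was a control, replicate 4, while control replicates 1 to 3 lay above all TCDD arrays. The difference was -0.25 (SE 0.22, adjusted p = 0.76, limma), and it reached 0.40 by another of its 3 probes. Without control replicate 4 the adjusted p was 0.18 (limma), still short of the threshold. Kcnk1 stood at 1.39, 1.56, 1.77 and 2.13 in controls and at 2.13, 2.47, 2.13 and 1.45 after TCDD, a difference of 0.33 (SE 0.23, adjusted p = 0.68, limma) with control replicate 4 and TCDD replicate 4 on the far side of their groups. Kcnk5 differed by 0.24 (SE 0.13), Kcnk3, an acid-sensitive leak channel, by 0.05 (SE 0.14) and Kcnk12 by 0.0048 (SE 0.07), which fell below 0 with quantile normalization, median centring and normexp. The interval for Kcnk12 ran from -0.16 to 0.17.

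Calcium channel pores carry the current that triggers secretion. None of the 7 measured pore genes reached an unadjusted p of 0.05. Cacna1c and Cacna1d, the L-type pores through which pituitary cells take up most of their calcium, stood on opposite sides of 0. Cacna1c was at -3.36 ± 0.13 (SD, n = 4) in controls and -3.22 ± 0.09 after TCDD, a difference of 0.14 (SE 0.08, adjusted p = 0.64, limma). Cacna1d was at -4.68 ± 0.16 (SD, n = 4) and -4.80 ± 0.15, a difference of -0.12 (SE 0.11). The T-type pores, which open near the resting potential, gave differences of 0.12 (SE 0.07) for Cacna1i, 0.09 (SE 0.17) for Cacna1g and -0.23 (SE 0.21) for Cacna1h. Cacna1a, the P/Q-type pore of nerve terminals, differed by 0.03 (SE 0.09), with an interval from -0.17 to 0.24, and stood just below 0 with quantile normalization and median centring. Among auxiliary subunits, Cacnb2, a beta subunit that brings the pore to the membrane, stood at -5.00, -5.01, -5.05 and -5.40 in controls and at -4.94, -4.93, -4.81 and -4.49 after TCDD. All TCDD values lay above the controls, by little on 2 arrays, and the difference of 0.32 (SE 0.13, adjusted p = 0.44, limma) came to 0.0045 with normexp. Cacng2, which is better known as a partner of AMPA receptors, stood at 1.02, 0.70, 1.06 and 0.91 in controls and at 0.63, 0.31, 0.86 and 0.70 after TCDD (difference -0.30, SE 0.13, adjusted p = 0.47, limma). Cacnb3, another beta subunit, differed by -0.0054 (SE 0.10).

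Sodium channels carry the upstroke of fast action potentials. None of their 8 measured genes reached an unadjusted p of 0.05, and the differences lay between -0.16 and 0.23. The pore genes Scn2a and Scn3a differed by 0.06 (SE 0.16) and 0.19 (SE 0.24), and the auxiliary beta subunits Scn2b and Scn3b by 0.23 (SE 0.13) and 0.03 (SE 0.07). Scn3b stood just below 0 with median centring, as did Scn3a with normexp. Scn3a stood at -4.45, -4.38, -4.60 and -5.54 in controls, so that control replicate 4 widened its error.

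TRP channels admit sodium and calcium after receptor, lipid, heat or chemical signals. Of the 12 measured genes 3 were higher and 9 lower, with a median difference of -0.08, where 56.4% of all genes were higher. Among the 12, 1 reached an unadjusted p under 0.05, beside 10.7% of all genes. That gene, Trpc6, a channel opened by diacylglycerol, stood at -5.18, -5.43, -4.99 and -5.20 in controls and at -4.25, -5.00, -4.54 and -4.71 after TCDD. TCDD replicate 2 lay just below control replicate 3, and the other 3 TCDD arrays lay above all controls. The difference was 0.57 (SE 0.16, 1.49-fold, adjusted p = 0.31, limma), and it stood between 0.25, with normexp, and 0.70 over the 19 alternative settings with an unadjusted p under 0.05 in each. Trpm3 differed by 0.33 (SE 0.20) by the probe used, by 0.21 (SE 0.16) and -0.43 (SE 0.36) by its other probes. Trpc1 differed by -0.12 (SE 0.13), and Trpv3, which was well above background on 4 arrays, by -0.26 (SE 0.42). Trpc4ap, a protein that binds a TRP channel and is no channel itself, matched the name rule and differed by -0.0018 (SE 0.06).

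Chloride channels and exchangers move anions across the surface membrane and the membranes of endosomes. Ano1, a channel that calcium opens, differed by 0.02 (SE 0.14), and Ano10 by 0.01 (SE 0.06), both below 0 with median centring. Clcn4, an exchanger of endosomes, differed by 0.24 (SE 0.16, adjusted p = 0.66, limma). Clcn2 stood at -4.76, -4.53, -4.72 and -5.65 in controls and at -5.11, -2.46, -4.78 and -4.78 after TCDD. TCDD replicate 2 alone stood above the rest, and the difference of 0.64 had an SE of 0.57.

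**Figure D4:**
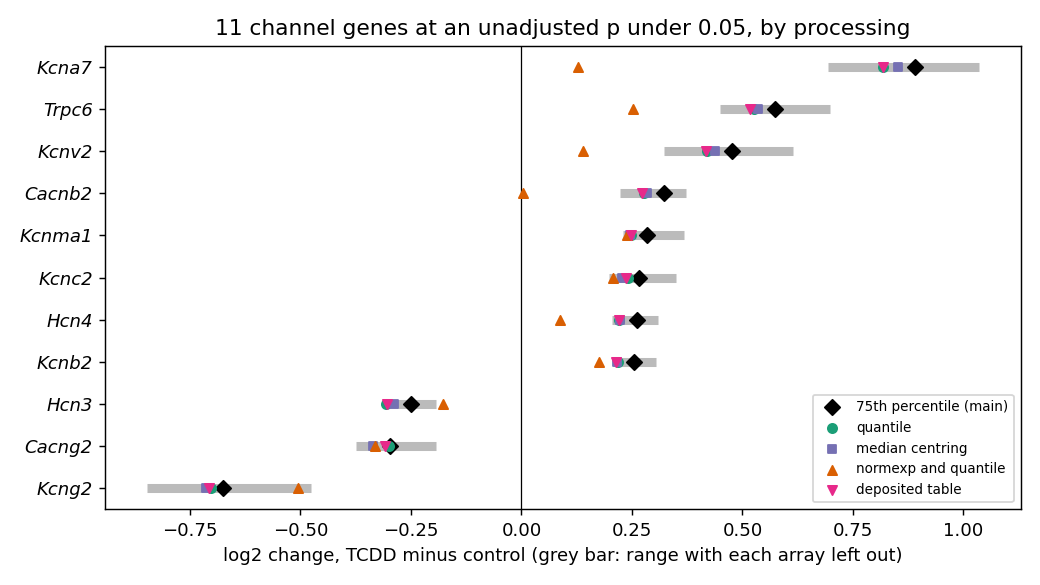
Log2 difference, TCDD minus control (horizontal axis), of 11 channel genes at an unadjusted p under 0.05 (vertical axis) under 5 ways of scaling, with a grey bar for the range when each array was left out in turn. Each gene kept its sign in every setting shown, and of the 5 ways of scaling normexp lay closest to 0 for every gene except Cacng2.

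Excitability also rests on pumps, exchangers, calcium stores and ligand-gated channels. Of 59 such genes chosen by function, 44 were measured, 21 higher and 23 lower, and 0 passed the adjusted threshold (limma, smallest adjusted p 0.30). Only 1 of the 44 reached an unadjusted p under 0.05, beside 10.7% of all genes tested. It was Rem2, a small GTPase that inhibits calcium channels, with a difference of 0.22 (SE 0.06). The sodium pump subunit Atp1b1 differed by -0.15 (SE 0.08), and the sodium leak channel Nalcn, which depolarises pituitary cells at rest, by -0.05 (SE 0.07). The calcium store genes Itpr1 and Stim1 differed by -0.08 (SE 0.08) and -0.00024 (SE 0.06), and the ATP-gated channel P2rx4 by 0.27 (SE 0.13). The median over the 44 genes was -0.0022.

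Of the 8 arrays, TCDD replicate 2 held 22.9% and control replicate 4 15.2% of the squared deviations from the gene means, beside 8.88% to 11.8% on each other array. TCDD replicate 2 was the lowest array for 29 of the 108 genes and control replicate 4 for 22. The pituitary holds the axon endings and glia of the posterior lobe besides endocrine cells. Of 12 posterior lobe and neural markers 10 were measured, and Gfap and Mog were not well above background. After TCDD 6 were higher and 4 lower, where 56.4% of all genes were higher. At an unadjusted p under 0.05 there were 2 of them, beside 10.7% of all genes tested. Their summed linear signal, in units of the 75th percentile, ran from 11.6 to 16.0 in controls and from 11.9 to 14.9 after TCDD. Relative to the mean of the 8 arrays they stood at 0.08, 0.32, 0.35 and -0.42 on control replicates 1 to 4 and at 0.0022, -0.29, 0.06 and -0.11 on the TCDD replicates. In whole tissue, fewer cells of a type and less RNA per cell cannot be told apart.

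Kcnk2 and Kcnmb4 were high on the arrays where these markers were high, and Kcnd3 was low there. Over 8 arrays Pearson's r was 0.95 for Kcnk2 (exact permutation p = 4.71e-04, Spearman's rho 0.98, p = 3.97e-04), 0.96 for Kcnmb4 (p = 6.45e-04, rho 0.98, p = 3.97e-04) and -0.96 for Kcnd3 (p = 1.74e-04, rho -0.95, p = 0.0011), all two-sided. Adjusted over all 1188 relations of the 108 genes with 11 marker lists, none passed by either measure (0.14 for Kcnk2 and Kcnd3 and 0.15 for Kcnmb4 by r, 0.23 for each by rho). At an unadjusted p under 0.05 stood 10.3% of the relations, by an exact permutation test. The same share over all genes was not computed, so 10.3% cannot be read as particular to channel genes. Without control replicates 3 and 4, which lay farthest from the median of the markers, r was 0.87, 0.96 and -0.96, and with each group centred on its own mean 0.94, 0.96 and -0.96. The groups of 4 arrays were too small for a value of their own. The other probes were less close, with r of 0.82 and 0.30 for Kcnk2 and of -0.67 and -0.55 for Kcnd3. These genes followed other lists too. With the corticotroph and melanotroph markers, which were lowest on control replicate 4 and TCDD replicate 2, r was 0.96 for Kcnmb4 (exact permutation p = 4.71e-04, adjusted p = 0.14, rho 0.95) and 0.90 for Kcnk2 (exact permutation p = 0.0031, adjusted p = 0.28, rho 0.88). With the folliculostellate and stem cell markers r was 0.84 for Kcnk2 (exact permutation p = 0.0073, adjusted p = 0.28, rho 0.76), and 0.50 without control replicates 3 and 4. Trpv3, well above background on 4 of the 8 arrays, ran against the stromal and pericyte markers (r = -0.95, exact permutation p = 4.22e-04, adjusted p = 0.14, rho -0.88). These relations were taken up after the values had been seen.

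**Figure D5:**
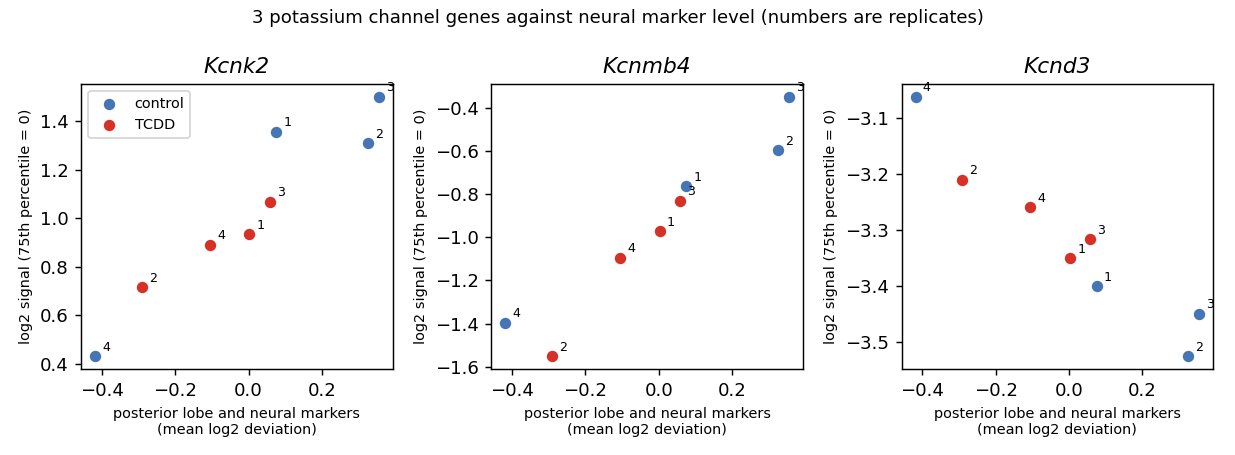
Log2 signal of Kcnk2, Kcnmb4 and Kcnd3 (vertical axes) against the mean log2 deviation of 10 posterior lobe and neural markers (horizontal axes) on 4 control (blue) and 4 TCDD (red) arrays, numbered by replicate. Control replicate 4 is lowest for the markers, for Kcnk2 it is the lowest array, and for Kcnd3 the highest.

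Red blood cell markers stood higher on the TCDD arrays: all 5 measured of 6 listed were higher, each at an unadjusted p under 0.05 and 0 past the adjusted threshold (limma). Over all genes tested 7.76% were higher at an unadjusted p under 0.05. Their summed linear signal ran from 304 to 551 in controls and from 438 to 664 after TCDD. Control replicate 4 lay above TCDD replicate 1 for these markers. Over the 108 channel genes r with these markers ran from -0.92 (Kcng1) to 0.89 (Cacna1c), with a median of -0.07. Among the 13 genes at an unadjusted p under 0.05 after TCDD, Kcng2 and Hcn3 had the smallest p-values of r. Their r was -0.83 and -0.84 (exact permutation p = 0.0058 and 0.0061, adjusted p = 0.28 for each), and -0.68 and -0.61 with each group centred. These genes were chosen for a difference between the groups, and the markers differed between the groups too. The r over all arrays therefore holds that group difference, and its p-values cannot tell a relation from it. No p-value was computed for the centred values. Whether red blood cells had a part in the channel gene differences, none of which passed the adjusted threshold, was not tested. Leukocyte markers (4 measured of 5, Cd3e not well above background) were 1 higher and 3 lower, with sums of 4.85 to 7.17 in controls and 3.53 to 7.19 after TCDD. Endothelial markers (5 of 5 measured) were 2 higher and 3 lower, and stromal and pericyte markers (6 of 6) 4 higher and 2 lower, none at an unadjusted p under 0.05. The lactotroph markers (4 of 4) were 2 higher and 2 lower, 1 of them at an unadjusted p under 0.05. Their sums were 316 to 337 in controls and 295 to 338 after TCDD. Gonadotroph markers (5 of 5) were 2 higher and 3 lower, 2 of them at an unadjusted p under 0.05. Corticotroph and melanotroph markers (4 measured of 5) were all lower, somatotroph markers (3 of 3) 1 higher and 2 lower, and thyrotroph markers (3 of 3) 2 higher and 1 lower. In these last lists 0 reached an unadjusted p under 0.05, and no endocrine marker passed the adjusted threshold (limma).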

How the data were processed

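Cy3-labelled RNA of each pituitary was read on a 1-colour array. Per the file headers, Feature Extraction 10.7.1.1 quantified the images. The deposited intensities are linear, and were background-subtracted and detrended on each array alone. The authors' table of intensities for the same arrays, which share nearly 1 distribution, served as an alternative. The 75th percentile ranged from 765 to 932. The share of spots well above background ranged from 71.1% to 73.9%, and 0 were saturated. The number of arrays limits the precision.

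Log2 of the processed intensity was taken minus the 75th percentile of the array (controls left out). Repeat spots of a probe were averaged after removing flagged outliers. A probe was kept if well above background on 4 or more arrays, and a gene was read by its brightest kept probe. RefSeq's GRCr8 table served to update gene names only. All 237 channel probes matched: 213 through an accession, 23 through the current symbol, 1 through a former one. This renamed 4 genes. One further probe of Kcnip2, under another name in the files, was kept apart.

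The comparison used limma 3.58.1 (lmFit, eBayes; R 4.3.3) on 17350 genes, two-sided, with group as the only term. P-values were adjusted by Benjamini-Hochberg, with a threshold of 0.05. The fit was tested on simulated data. Exact permutation tests ran over 70 assignments. Nothing says more of how samples were taken than 4 rats per group, and p-values reflect no more than the variation among these arrays, which may be technical. Alternatives were normexp (offset 50) with quantile normalization, called normexp, other scalings, filters, probe and variance choices, the authors' deposited table, a replicate block, and each array left out.

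The 44 named genes are, per class, the brightest and the 2 of smallest p, the 5 of largest spread within groups, any past the threshold or above background in 1 group only, and a list of 19 channels known from pituitary electrophysiology, 17 of them measured. The members and lists were chosen with earlier results of these data known. Some of these genes are counted but not reported here by name.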

Additional observations from a re-analysis of the deposited data

Results flagged for a closer look

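Of 88 groups of 4 arrays (44 named genes in 2 groups), 5 had 1 array set apart from the others. In these the gap, as a share of the group's range, exceeded Dixon's 95% critical value for 4 samples. Chance gives about 5% for genes not chosen by their spread. The named genes include 5 chosen for the largest spread within groups, Hcn2 and Clcn2 among them, so that rate is no fair standard for this count. In the TCDD group these were Hcn2 on replicate 3 (0.852), Clcn2 on replicate 2 (0.875), Trpc1 on replicate 2 (0.886) and Cacna1a on replicate 4 (0.917), each above its group. In the control group it was Cacnb2 on replicate 4 (0.863), below its group. For Hcn2 and Clcn2 the gap was large in size: TCDD replicate 3 read -2.53 for Hcn2 where the next TCDD array read -4.60, and TCDD replicate 2 read -2.46 for Clcn2 where the next read -4.78. For Cacna1a the TCDD values lay within a narrow range, between -2.47 and -2.26.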

How the results depend on the processing

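In all 19 alternative settings 0 channel genes passed an adjusted p of 0.05, and 0 of the other excitability genes did (limma). The smallest adjusted p of a channel gene in any setting was 0.18, that of Kcnk2 without control replicate 4. At an unadjusted p under 0.05 the count of channel genes was 13. It was 8 with quantile normalization, and 8 to 16 with 1 array left out, at 8 without control replicate 3 or TCDD replicate 4. With quantile normalization this was 7.41% of the measured channel genes, beside 9.88% of all genes. The 16, without TCDD replicate 3, were 14.8% beside 10.02% of all genes. Without control replicate 3 and without TCDD replicate 4 the share was 7.41%, beside 8.95% and 9.74% of all genes. The channel share thus lay on either side of that of all genes. Of the 8 with quantile normalization 7 were among the 13. Over the 19 alternative settings the unadjusted p (limma) was under 0.05 in 18 for Hcn4 and in 14 for Kcnb2, Kcng2 and Hcn3. It was so in 10 for Cacng2 and Kcnma1, 8 for Cacnb2, 7 for Kcnv2 and 6 for Kcnc2. For Kcna7 it was so in all 18 that gave a value. For the other excitability genes the count of 1 became 2 with normexp, 3 with array weights and 1 to 4 with 1 array left out. Of all genes, 11.1%, 13.1% and 8.08% to 11.7% stood at an unadjusted p under 0.05 in these settings. The median difference of the channel genes lay between -0.02 and 0.05. Of the 44 named genes 29 kept their sign in every setting that gave a value. The 15 others had small differences or wide errors. With quantile normalization, Cacna1a stood at -0.0040, Ano10 at -0.0026 and Kcnk12 at -0.016. With median centring, Cacna1a stood at -0.0069, Ano10 at -0.025, Kcnk12 at -0.034, Ano1 at -0.014 and Scn3b at -0.0054. With normexp, Cacna1g stood at -0.0025, Scn3a at -0.0033 and Kcnk12 at -0.069. With the deposited table, Cacna1a stood at -0.0059, Ano10 at -0.015 and Kcnk12 at -0.014. With array weights, Trpc4ap stood at 0.021, Cacnb3 at 0.030, Cacna1a at -0.041, Scn3a at -0.011, Scn2a at -0.023 and Kcnh2 at 0.049. With 1 array left out the range was -0.064 to 0.17 for Ano1, -0.011 to 0.036 for Ano10, -0.025 to 0.091 for Cacna1a, -0.029 to 0.23 for Cacna1g, -0.088 to 0.047 for Cacnb3, -0.38 to 0.43 for Hcn2, -0.074 to 0.096 for Kcnh2, -0.45 to 0.18 for Kcnj13, -0.034 to 0.043 for Kcnk12, -0.034 to 0.17 for Kcnk3, -0.036 to 0.20 for Scn2a, -0.076 to 0.31 for Scn3a, -0.010 to 0.062 for Scn3b, -0.038 to 0.038 for Trpc4ap and -0.54 to 0.042 for Trpv3. The causes were not tested. Normexp adds a fixed offset, which by construction makes differences of dim genes smaller.

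Same-numbered arrays did not deviate together (correlations between -0.10 and -0.02 over 4 pairs, and none correlated best with its own number), so the numbers were not taken to pair the samples. With the replicate number as a block 12 channel genes stood at an unadjusted p under 0.05, 8 of them among the 13, which is 11.1% of the measured channel genes beside 8.72% of all genes. A probe near background limits what can be said of 66 of the 174 genes.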
